A study of Mus musculus with 6 samples.

Results

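Of the 36 hexamers that the deposited lists attach to cleavage positions, 16 have a base other than T at the third place and are not the run of 6 A bases. Positions listed with 1 of these 16 hexamers, outside chromosome M, numbered 357330 of 2333467 pooled positions (15.3%) and held 5140750 reads, 1.98% of all reads outside chromosome M. The 19 hexamers with T at the third place, called T-third hexamers here, held 1864342 positions (79.9%), and the hexamer AAAAAA held 111795 (4.79%).

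The 3′ ends of polyadenylated RNA were mapped in V6.5 cells, a mouse embryonic stem cell line of strain C57BL/6-129. The 6 libraries form 3 groups of 2, described in the design as biological replicates. One group received an antisense morpholino oligonucleotide (AMO) targeting U1, the small nuclear ribonucleoprotein of 5′ splice sites, another received a scrambled AMO, and the last was untreated. All 6 libraries come from this 1 line, grown under standard stem cell conditions, so p-values measure the spread between these libraries only. No marker of the cell type could be looked up, since the lists carry positions without gene names.

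The libraries held 15752080 and 57925358 reads under U1 AMO, 26846406 and 62257923 under scrambled AMO, and 38569397 and 60473882 without treatment. Read names showed that replicate 1 of both AMO groups shared a sequencing run and lane. Replicate 2 of both AMO groups shared another run, in separate lanes, and each untreated library had a run of its own. For untreated cells, run and group cannot be told apart. No molecular identifiers are described, so reads are not independent molecules and intervals cover counting error only.

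In mammalian nuclei the 3′ end of most messenger RNAs is set by a poly(A) signal, typically AATAAA in the DNA, which lies a short way upstream of the cleavage site and is bound by the CPSF complex. In structures of the human complex, the third base of this signal, a U in the RNA, pairs with its last A inside the complex. Variants of the signal are known, and surveys of human 3′ ends list AAGAAA among the rare ones, and likewise AAAACA and AAAAAG. U1 is known to suppress cleavage at signals inside transcribed regions. A-rich genomic sequence can also start reverse transcription from an oligo(dT) primer within an RNA, so the A content next to a position is often recorded in such data.

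The 16 hexamers are shown because each is described separately, with the third base in capitals. The deposited lists give them in DNA letters, 5′ to 3′ on the strand of the RNA. First come those with G at the third place, then C, then A, each with its rank in the listing order.
Rank 5 of the listing: aaGaaa
Rank 24 of the listing: aaGtaa
Rank 30 of the listing: aaGaat
Rank 25 of the listing: aaCaat
Rank 35 of the listing: aaCaaa
Rank 13 of the listing: atAaaa
Rank 14 of the listing: aaAtaa
Rank 15 of the listing: aaAata
Rank 19 of the listing: taAaaa
Rank 22 of the listing: aaAaat
Rank 26 of the listing: aaAaga
Rank 27 of the listing: aaAaca
Rank 28 of the listing: aaAgaa
Rank 31 of the listing: aaAaag
Rank 33 of the listing: aaAcaa
Rank 34 of the listing: aaAaac

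Which hexamer a position carries was decided by a fixed order. Neighbouring positions share sequence, and in 278402 cases where another hexamer was known to lie in the same 6 to 40 nt window, none went against a single order of the 36. Of the 35 pairs of neighbours in that order, 33 were fixed directly by such cases. AATAGA with ATAAAA (ranks 12 and 13) and AAAGAA with ATTAAT (ranks 28 and 29) were not, and their order was set by the number of positions. AATAAA stood at rank 1 and ATTAAA at rank 2, and AAGAAA, at rank 5, was the only one of the 16 among the first 12. ATAAAA followed at rank 13, AAATAA at 14, AAAATA at 15, TAAAAA at 19, AAAAAT at 22, AAGTAA at 24, AACAAT at 25, AAAAGA at 26, AAAACA at 27 and AAAGAA at 28. AAGAAT had rank 30, AAAAAG 31, AAACAA 33, AAAAAC 34 and AACAAA 35. Under this order a position listed with AACAAA held none of the 34 hexamers ranked before it between 6 and 40 nt upstream. Where the same hexamer lay in the window more than once, the copy nearer to the position was listed in 59787 cases and the farther in 0. A lower-ranked T-third hexamer was known in the window of 1.83% of the positions of the 16, with 5.37% the highest share, for AAGAAA. These are minimum shares, because the windows are known only where another listed position gives their bases.

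The list also gives a distance and a further whole number for each position. The distance runs over 6 to 40 nt and is counted from the first base of the hexamer. The further number runs from 0 to 10 and behaved as a count of A bases in the 20 nt downstream of the position: in 1076 of 1076 pairs of adjacent positions with the bases at both ends of that window known, its change was the one such a count would show. Counting A bases over a window of 19 nt gave that change in 49.9% of its pairs. It is called the downstream A count below, and its meaning was inferred from the values.

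Positions with these hexamers carried few reads. Pooled over the 6 libraries they had 14.4 reads per position, and 55.3% had a single read. Within a library, they averaged 9.26 ± 5.16 reads per position, against 65.7 ± 42.2 at T-third positions and 4.70 ± 1.03 at AAAAAA positions (SD, n = 6 libraries). The ratio to T-third positions was 0.148 and held in the same direction in 6 of 6 libraries, as did the ratio of 1.82 to AAAAAA positions (exact two-sided sign-flip test, p = 0.0312 each, adjusted 0.0357 over 8 tests). A p of 0.0312 is the smallest that 6 libraries can give. Among the 16, the pooled reads per position ranged from 8.09 for AAAAAG to 28.6 for AAGAAT, with a median of 13.1, while the T-third hexamers had a median of 29.8.

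**Figure D1:**
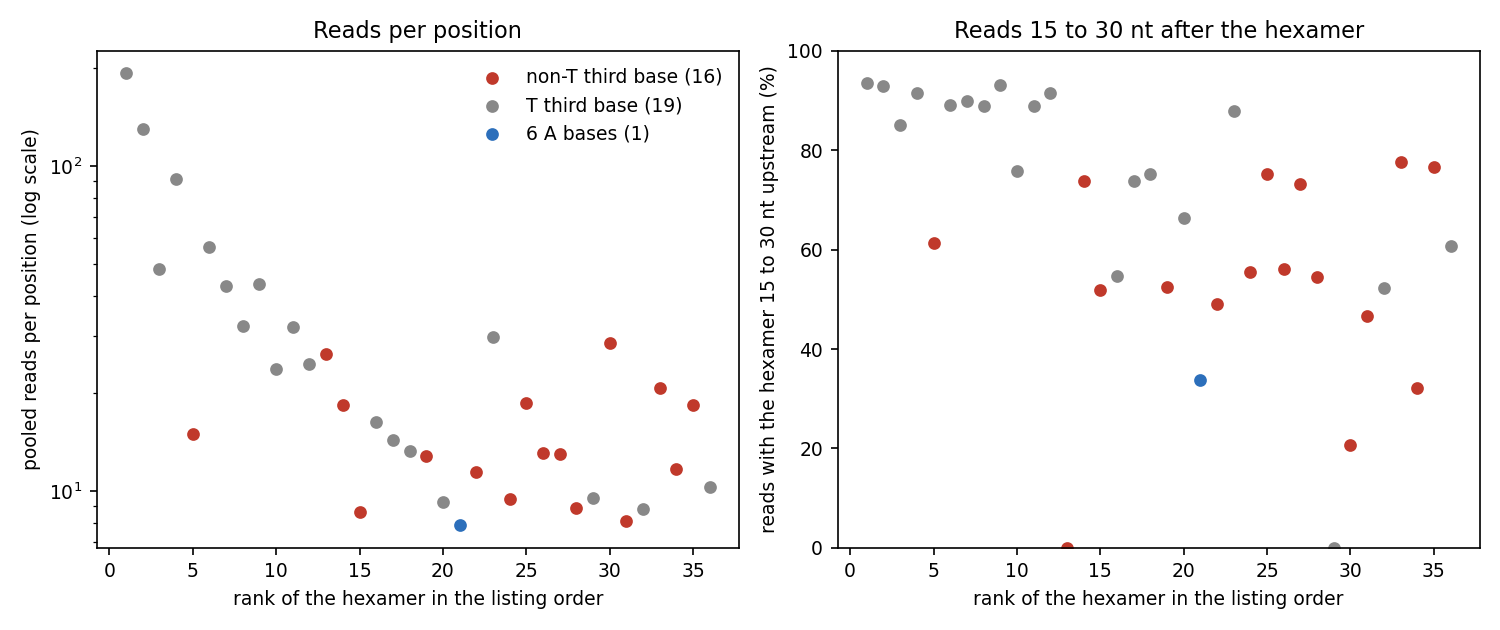
Each point is 1 of the 36 hexamers, placed by its rank in the listing order; the left panel gives pooled reads per position on a log scale and the right panel the percentage of reads at positions 15 to 30 nt after the first base of the hexamer. AAGAAA, at rank 5, had 15.0 reads per position beside T-third neighbours with several times more, and from rank 13 on both kinds mix.

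Most of these positions were seen once. Of the 357330 positions, 70.2% were listed in 1 library only, against 55.3% of T-third and 68.7% of AAAAAA positions. Without AATAAA and ATTAAA the T-third value was 63.1%, and the 8 T-third hexamers from rank 16 on had 68.2% (AATAAT) to 75.2% (ATTAAT) of positions in 1 library, overlapping the 60.2% to 73.9% of the 16. The 2.996% that were listed in all 6 libraries held 71.6% of the reads. Per library, 59.2 ± 5.66% of these positions were also listed by another library, against 76.5 ± 5.45% of T-third positions (difference -17.3 percentage points, lower in 6 of 6 libraries, exact sign-flip p = 0.0312, adjusted 0.0357) and 59.6 ± 5.42% of AAAAAA positions (difference -0.445 percentage points, p = 0.719). Of the positions with at least 10 pooled reads, 29.1% were listed in all 6 libraries, against 47.3% of such T-third positions. These contrasts do not hold read number equal: pooled reads per position were 14.4 for the 16 and 136 for T-third hexamers. The per-library difference in listing by another library was much smaller at 10 or more pooled reads, and at 2 to 9. Neither passed the threshold, and at 10 or more the reads alone make such listing likely.

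The downstream A count was higher than at T-third positions and lower than at AAAAAA positions. Its mean over positions was 5.48 ± 0.125 A bases of 20 per library, against 4.997 ± 0.0715 at T-third positions and 5.95 ± 0.103 at AAAAAA positions (SD, n = 6 libraries). The differences of 0.483 and -0.465 A bases had the same sign in 6 of 6 libraries (exact sign-flip p = 0.0312, adjusted 0.0357). Pooled over libraries, the mean per hexamer ran from 5.39 for ATAAAA to 5.95 for AAAAAC, so AAAAAC was the nearest of the 16 to AAAAAA, which had 6.03. The 8 T-third hexamers from rank 16 on overlapped this range, with 5.35 for AATAAT to 5.64 for ATTAAT, while AATAAA had 5.27 and ATTAAA 4.99. Weighted by reads, the mean of all 16 dropped to 4.62, that of T-third hexamers to 4.01 and that of AAAAAA to 5.55. Whether reverse transcription began inside RNAs at such positions was not tested.

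Reads of these hexamers were spread more widely over the distances than the pooled reads of T-third hexamers, which had 92.9% at 15 to 30 nt. For the 16 hexamers together 58.4% of reads and 51.0% of positions ended 15 to 30 nt after the first base of the hexamer, with 14.9% of reads at 6 to 12 nt. AATAAA had 93.5% of its reads at 15 to 30 nt. T-third hexamers from rank 16 on overlapped the 16 hexamers. Apart from ATTAAT, listed at 40 nt only, they ran from 52.3% (ACTAAT) to 88.0% (AATAAT) at 15 to 30 nt. TATTAA had 54.7% there and 20.9% at 6 to 12 nt. AAAAAA had 33.7% of its reads at 15 to 30 nt and 53.3% at 6 to 12 nt. The mean distance over positions was 22.4 ± 0.305 nt per library, against 23.1 ± 0.118 nt for T-third and 13.8 ± 1.79 nt for AAAAAA (differences -0.703 and 8.57 nt, the same sign in 6 of 6 libraries, exact sign-flip p = 0.0312, adjusted 0.0357). Among positions with at least 2 reads in the library the difference to T-third positions was -0.136 nt (exact sign-flip p = 0.25).

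**Figure D2:**
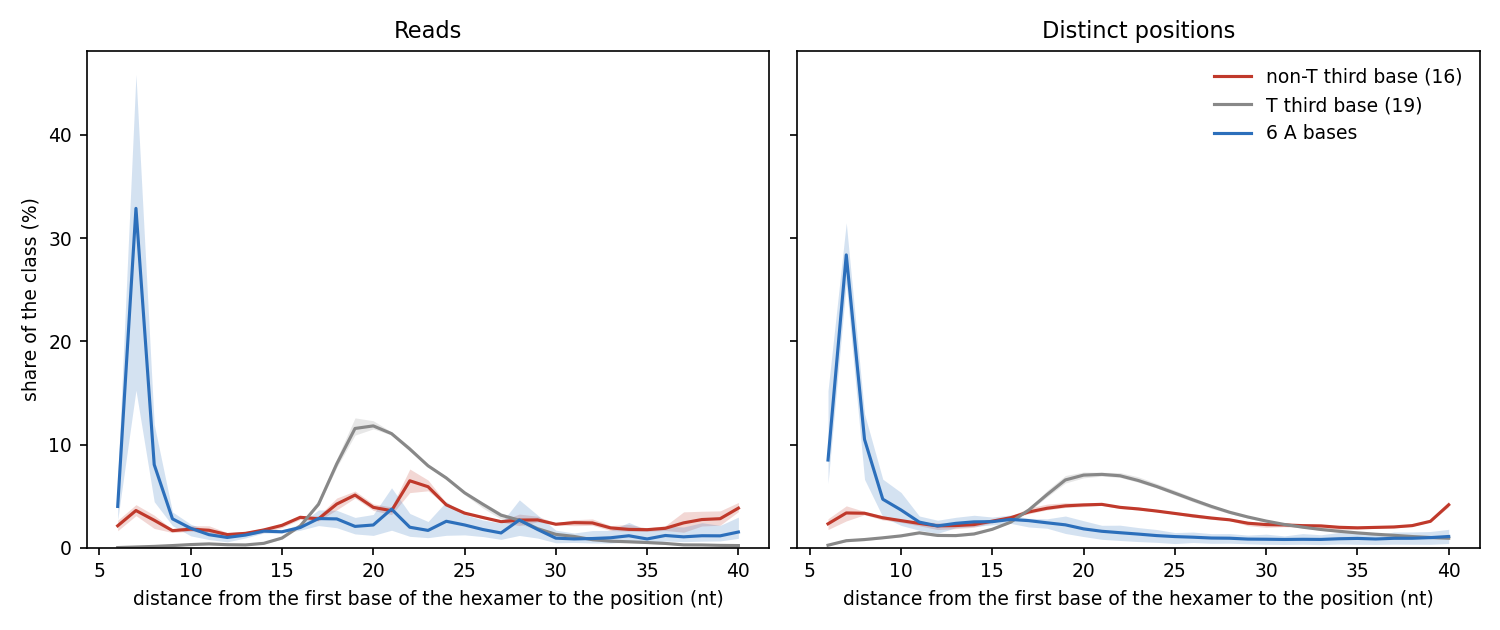
Lines give the percentage of reads (left) and of distinct positions (right) of each class at each distance in nt from the first base of the hexamer, as the mean over 6 libraries, with shading from the lowest to the highest library. Reads of the 16 hexamers spread over the whole range with 58.4% at 15 to 30 nt, while T-third reads gather near 20 nt and AAAAAA reads near 7 nt.

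Among the hexamers with G at the third place, AAGAAA was the commonest of the 16, with 89897 positions, 1345954 reads and 15.0 reads per position. Its reads lay 15 to 30 nt downstream in 61.4% of cases, most often at 19 nt, its mean downstream A count was 5.76, and 70.1% of its positions were in 1 library and 3.38% in all 6. Its share of reads was 0.564% and 0.532% under U1 AMO, 0.590% and 0.520% under scrambled AMO, and 0.429% and 0.521% in untreated libraries. Both U1 AMO libraries lay above both untreated libraries and between the scrambled AMO libraries. Its strongest position, chr14:47942766-47942766 on the plus strand in mm9, had 58.8 and 70.2 CPM (counts per 1000000 reads of the library) under U1 AMO, 65.5 and 79.0 under scrambled AMO, and 75.1 and 154 in untreated libraries, 19 nt from its hexamer.

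AAGTAA was the rarest in reads, at 0.0254% of the pool. It had 6957 positions, 9.48 reads per position, 55.5% of reads at 15 to 30 nt, a mean downstream A count of 5.54 and 73.1% of positions in 1 library. It took 0.0263% and 0.0303% of reads under U1 AMO, 0.0279% and 0.0289% under scrambled AMO, and 0.0228% and 0.0176% in untreated libraries, so that both untreated libraries were below the other 4.

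AAGAAT had 28.6 reads per position over 10511 positions, but 69.0% of its reads were on its 10 strongest positions. The strongest, chr17:35390625-35390625 on the plus strand, was also the strongest of all 357330, with 281 and 361 CPM under U1 AMO, 282 and 350 under scrambled AMO, and 354 and 510 in untreated libraries. It lay 7 nt from its hexamer, and 64.1% of AAGAAT reads fell at 6 to 12 nt and 20.7% at 15 to 30 nt, although 53.0% of its positions were at 15 to 30 nt. Its mean downstream A count was 5.53 and 70.7% of its positions were in 1 library. The share of reads was 0.0983% and 0.125% under U1 AMO, 0.103% and 0.119% under scrambled AMO, and 0.117% and 0.114% in untreated libraries, overlapping throughout.

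The hexamers with C at the third place, AACAAT and also AACAAA, with 13499 and 11474 positions, had most of their reads at the usual distance of a poly(A) signal. AACAAT had 75.3% and AACAAA 76.7% of reads at 15 to 30 nt, but 52.4% and 53.7% of positions, near the 51.0% of all 16, and their 10 strongest hexamer copies held 60.8% and 57.0% of the reads. They had 18.7 and 18.4 reads per position and 23 nt as the commonest distance by reads in both. Their mean downstream A counts were 5.40 and 5.48, and 70.2% and 71.6% of their positions were in 1 library. The strongest AACAAA position, chr3:90302880-90302880 on the minus strand and 23 nt from its hexamer, had 137 and 135 CPM under U1 AMO, 151 and 143 under scrambled AMO, and 181 and 227 in untreated libraries. The strongest AACAAT position, chr3:89586664-89586664 on the plus strand and also at 23 nt, had 47.7 and 61.0 CPM under U1 AMO, 84.8 and 95.5 under scrambled AMO, and 75.1 and 124 in untreated libraries. At both positions the U1 AMO libraries were below all other libraries.

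The share of reads of AACAAT was 0.0959% and 0.107% under U1 AMO, 0.0967% and 0.105% under scrambled AMO, and 0.0983% and 0.0805% in untreated libraries. AACAAA had 0.0862% and 0.0918% under U1 AMO, 0.0795% and 0.0899% under scrambled AMO, and 0.0766% and 0.0662% in untreated libraries. Only for AACAAA were the untreated libraries both below the other 4.

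Of the 4 with A at the third place and 1 T before or inside the run, ATAAAA was listed at 40 nt only, in 2736 positions, with 26.5 reads per position. The next position upstream was listed in 1091 cases, and in 1091 of these its hexamer, also at 40 nt, began 1 base before ATAAAA. The base ahead of ATAAAA was A in 911 of them, which makes the shifted hexamer AATAAA, just past the far end of the window. It was T in 82, C in 62 and G in 36. All 4 possible shifted hexamers are T-third hexamers ranked higher, so each ATAAAA position has one just past its window. A share of 75.3% of ATAAAA positions lay in a cluster (same-strand positions at most 24 nt apart) that held a T-third position, against 15.2% for the 16 together. The downstream A count of ATAAAA averaged 5.39, and 60.2% of its positions were in 1 library. Both were the lowest of the 16, so ATAAAA sets those ends of the ranges above. Its share of reads was 0.0329% and 0.0262% under U1 AMO, 0.0316% and 0.0275% under scrambled AMO, and 0.0283% and 0.0271% in untreated libraries.

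AAATAA had 24207 positions, 18.4 reads per position, 73.8% of reads at 15 to 30 nt, a mean downstream A count of 5.46 and 69.2% of positions in 1 library. Its share of reads was 0.166% and 0.169% under U1 AMO, 0.172% and 0.173% under scrambled AMO, and 0.186% and 0.167% in untreated libraries. It was the only one of the 16 with both U1 AMO libraries below both scrambled AMO libraries, by -0.0049 percentage points (exact two-sided permutation test, p = 0.333, adjusted 0.762). Its strongest position, chr11:120820084-120820084 on the plus strand at 22 nt, had 69.2 and 79.3 CPM under U1 AMO, 86.1 and 131 under scrambled AMO, and 304 and 303 in untreated libraries. The 3 groups did not overlap there.

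AAAATA had 19878 positions with 8.66 reads each, 51.9% of reads at 15 to 30 nt, a mean downstream A count of 5.60 and 72.0% of positions in 1 library. Its share of reads was 0.0694% and 0.0656% under U1 AMO, 0.0724% and 0.0642% under scrambled AMO, and 0.0628% and 0.0683% in untreated libraries.

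TAAAAA was second in number, with 82990 positions and 1063732 reads, 12.8 per position. It had 52.6% of its reads at 15 to 30 nt, a mean downstream A count of 5.67 and 67.4% of positions in 1 library. Its share of reads was 0.536% and 0.353% under U1 AMO, 0.539% and 0.338% under scrambled AMO, and 0.283% and 0.531% in untreated libraries. The libraries of 1 sequencing run lay side by side and the replicates of each group far apart. AAAAAA had a like order, with 0.628% and 0.301% under U1 AMO, 0.577% and 0.275% under scrambled AMO, and 0.178% and 0.364% in untreated libraries.

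Part of the spread of TAAAAA sat at the far end of the window. At 36 to 40 nt it had 1580 and 583 CPM under U1 AMO, 1463 and 492 under scrambled AMO, and 330 and 990 in untreated libraries. At 6 to 12 nt it had 409 and 508 CPM under U1 AMO, 505 and 525 under scrambled AMO, and 474 and 584 in untreated libraries, a narrower range. Both untreated lists also lacked many positions with high levels in the other libraries. From the level in the other 5 libraries, 945 TAAAAA positions had at least 20 expected reads in untreated replicate 1, and 191 of them (20.2%) were not listed, against 3.23% for the other 15 hexamers. AAAAAA had 39.8% not listed in that library and T-third hexamers 1.80%. In untreated replicate 2 the gap was on other hexamers: 29.7% of such AAAGAA positions were not listed, 27.9% of AAAAAC, 23.4% of AACAAA, 21.9% of AAGTAA and 19.3% of AAAAAG, against 5.31% of TAAAAA and 6.61% of T-third positions. Over all 16 hexamers the share not listed was 2.22% and 0.139% under U1 AMO, 0.617% and 0.806% under scrambled AMO, and 7.05% and 11.7% in untreated libraries. Untreated replicate 2, with 60473882 reads, listed 59765 positions of the 16, and U1 AMO replicate 1, with 15752080 reads, listed 65345. These 5 hexamers with large gaps in untreated replicate 2 are among the 10 whose read shares were higher in both U1 AMO libraries than in both untreated libraries. AAGAAT, with 17.8% not listed there, is not among those 10. The expected reads draw on the AMO libraries, so gaps and shares are not independent measures. Whether they are linked was not tested. The sources used here do not say how the lists were filtered, and whether filtering differed between libraries was not tested.

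**Figure D3:**
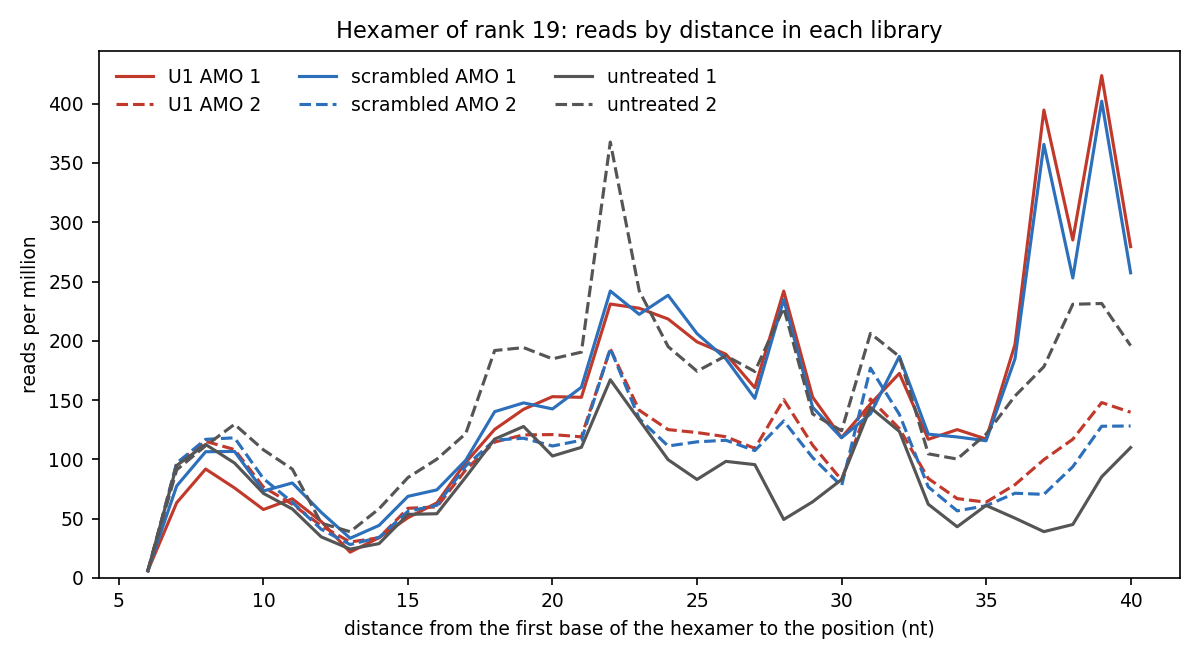
Lines give CPM of TAAAAA (rank 19) at each distance in nt from the first base of the hexamer, 1 line per library, solid for replicate 1 and dashed for replicate 2. Replicate 1 of both AMO groups stands highest at 36 to 40 nt, with 1580 and 1463 CPM summed there, and untreated replicate 1 lowest, with 330 CPM.

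AAAAAT (11889 positions), AAAAAG (8698) and AAAAAC (7012) begin with a run of A and had fewer reads at 15 to 30 nt, with 49.1%, 46.7% and 32.2%. AAAAAC had 49.5%, AAAAAT 33.7% and AAAAAG 27.2% of reads at 6 to 12 nt. They had 11.5, 8.09 and 11.7 reads per position, mean downstream A counts of 5.66, 5.81 and 5.95, and 72.4%, 73.8% and 73.9% of positions in 1 library. In mean distance and in downstream A count, AAAAAC stood nearest to AAAAAA.

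The share of reads of AAAAAT was 0.0503% and 0.0626% under U1 AMO, 0.0509% and 0.0595% under scrambled AMO, and 0.0473% and 0.0409% in untreated libraries. For AAAAAG it was 0.0302% and 0.0322% under U1 AMO, 0.0319% and 0.0302% under scrambled AMO, and 0.0260% and 0.0170% in untreated libraries. For AAAAAC it was 0.0372% and 0.0428% under U1 AMO, 0.0350% and 0.0364% under scrambled AMO, and 0.0244% and 0.0179% in untreated libraries. AAAAAC was thus above both scrambled AMO libraries in both U1 AMO libraries, by 0.0043 percentage points (exact permutation p = 0.333, adjusted 0.762). Over positions listed in all 6 libraries that difference was -0.00050 percentage points.

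Another 4 hexamers have A at the third place and C or G within the run. AAAACA (26707 positions) and AAACAA (10918) had 73.1% and 77.6% of reads at 15 to 30 nt, near the values of AACAAT and AACAAA, with 13.0 and 20.8 reads per position. AAAAGA (18755) and AAAGAA (11202) had 56.2% and 54.5%, with 13.1 and 8.87 reads per position. Mean downstream A counts were 5.63 for AAAACA, 5.51 for AAACAA, 5.66 for AAAAGA and 5.70 for AAAGAA, and 71.1% to 73.6% of positions were in 1 library. By positions AAAACA and AAACAA had 51.2% and 51.6% at 15 to 30 nt, and their 10 strongest hexamer copies held 50.9% and 71.5% of their reads.

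Of these, AAACAA had the strongest position, chr2:25417601-25417601 on the plus strand at 24 nt. It held 171 and 163 CPM under U1 AMO, 149 and 175 under scrambled AMO, and 144 and 176 in untreated libraries, overlapping throughout. The strongest AAAGAA position, chr15:53092874-53092874 on the minus strand at 35 nt, had 0.190 and 42.6 CPM under U1 AMO, 4.47 and 41.8 under scrambled AMO, and 23.6 and 4.45 in untreated libraries. Its level separated the runs of the AMO libraries and not the AMO groups.

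AAAACA took 0.147% and 0.152% of reads under U1 AMO, 0.149% and 0.148% under scrambled AMO, and 0.116% and 0.103% in untreated libraries. For AAACAA the shares were 0.0978% and 0.0964% under U1 AMO, 0.0817% and 0.0975% under scrambled AMO, and 0.0854% and 0.0711% in untreated libraries. The AAAAGA shares were 0.100% and 0.114% under U1 AMO, 0.101% and 0.109% under scrambled AMO, and 0.0819% and 0.0661% in untreated libraries. AAAGAA had 0.0484% and 0.0512% under U1 AMO, 0.0476% and 0.0437% under scrambled AMO, and 0.0305% and 0.0187% in untreated libraries. Its U1 AMO libraries were above both scrambled AMO libraries by 0.0042 percentage points, 1.02-fold in the run of replicate 1 and 1.17-fold in that of replicate 2 (exact permutation p = 0.333, adjusted 0.762), and 2.02-fold above untreated cells. Scrambled AMO was 1.86-fold above untreated cells. Of AAAGAA positions with at least 20 expected reads, 9.17% and 29.7% were not listed in the untreated libraries, and over the 237 AAAGAA positions listed in all 6 libraries the folds over untreated cells were 1.79 under U1 AMO and 1.70 under scrambled AMO.

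The design asks whether inhibiting U1 changes where RNAs are cleaved, and for the 16 hexamers as a whole the share of reads differed little between the AMO groups. It was 2.19% and 2.05% under U1 AMO, 2.21% and 1.99% under scrambled AMO, and 1.72% and 1.93% in untreated libraries. U1 AMO minus scrambled AMO was 0.0199 percentage points, with -0.0221 in the run of replicate 1 and 0.0620 in that of replicate 2 (exact two-sided permutation test, p = 1). U1 AMO minus untreated was 0.297 and scrambled AMO minus untreated 0.278 percentage points (exact permutation p = 0.333 each, the smallest that 2 libraries against 2 can give). Over positions listed in all 6 libraries these were 0.0505 and 0.0915 percentage points (exact permutation p = 1 and 0.667).

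The share of distinct positions was 9.63% and 12.9% under U1 AMO, 11.7% and 13.6% under scrambled AMO, and 10.7% and 12.02% in untreated libraries. U1 AMO minus scrambled AMO was -1.39 percentage points, -2.06 and -0.717 within the runs (exact permutation p = 0.667). With every library thinned to 15752080 reads, the shares were 9.63% and 10.7% under U1 AMO, 10.8% and 11.1% under scrambled AMO, and 9.35% and 9.58% in untreated libraries.

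**Figure D4:**
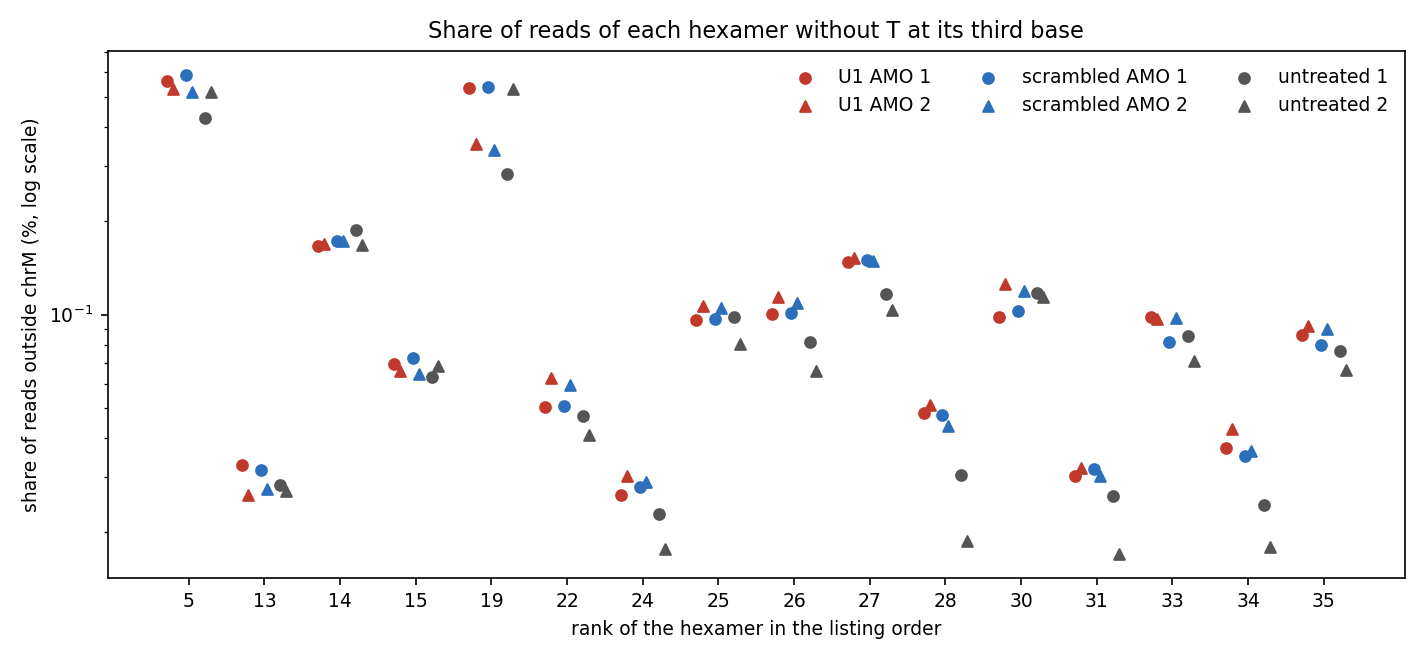
Points give the percentage of a library's reads outside chromosome M (log scale) at positions of each of the 16 hexamers, placed by rank, with circles for replicate 1 and triangles for replicate 2 and U1 AMO, scrambled AMO and untreated from left to right. Untreated libraries are the lowest for AAAGAA (0.0305% and 0.0187%) and AAAAAC (0.0244% and 0.0179%). For TAAAAA (rank 19) the AMO libraries separate by run, and untreated replicate 2 (0.531%) lies beside replicate 1 of both AMO groups.

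Taken hexamer by hexamer, 2 of the 16 (AAAGAA and AAAAAC) had both U1 AMO libraries above both scrambled AMO libraries in share of reads, where 8.33% of all 36 hexamers did, and 1 (AAATAA) had both below, where 11.1% of the 36 did. Against untreated cells 10 of the 16 were higher under U1 AMO without overlap (33.3% of the 36) and 0 lower (8.33%). Under scrambled AMO 8 of the 16 were higher than untreated cells (25% of the 36) and 0 lower (8.33%). Over positions listed in all 6 libraries, 9 were higher and 1 lower under U1 AMO than in untreated cells, and 9 higher and 2 lower under scrambled AMO. For those positions the count over all 36 hexamers was not made, so these numbers have no background beside them. No difference of a single hexamer can pass in such a test, since 2 against 2 libraries give no p below 0.333, and over the 48 tests the adjusted p was at least 0.762. In shares of positions, 0 of the 16 were higher under U1 AMO than under scrambled AMO (2.78% of the 36) and 2, AAGAAA and TAAAAA, were lower (8.33%).

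Cleavage positions at most 24 nt apart on a strand were joined into 931826 clusters, and a cluster was assigned to the hexamer of its strongest position. The 16 hexamers led 197414 clusters (21.2%), of which 77.0% consisted of 1 position. Enough reads for a test were found in 7694 of them (3.90%), which held 87.9% of the reads of clusters led by the 16, so the counts of calls below refer to the abundant clusters only. These clusters mostly stood apart from T-third sites: 89.8% of the 357330 positions lay in clusters led by 1 of the 16 and 42.5% were alone.

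Under U1 AMO, 22 clusters led by these hexamers rose over the scrambled AMO and 0 fell (edgeR quasi-likelihood test, Benjamini-Hochberg adjusted p below 0.05). The 22 are 0.286% of the 7694 tested, where 0.666% of all 80049 clusters and 0.738% of T-third clusters rose, so the share of rising clusters was below the background. At an unadjusted p below 0.05 there were 330 higher and 10 lower, and DESeq2 called 121 higher and 0 lower. Over all 80049 clusters, 7030 were higher and 75 lower at that unadjusted p, and DESeq2 called 3127 higher and 0 lower. AMO libraries of one replicate number shared a run. A fit of the 4 AMO libraries with the replicate as a block called 452 higher and 84 lower on 1 residual degree of freedom. That fit tested 6338 clusters led by these hexamers, and of all 68821 clusters tested it called 9196 higher and 1573 lower. The same block in the fit of all 6 libraries called 0. The median log2 fold change was -0.06, and -0.02 over all clusters tested. Clusters called for a rise under U1 AMO are likely, by that selection, to be higher in both runs. The 22 were each higher in both runs, but the number of calls depended on single libraries: 51 were made without U1 AMO replicate 1, 2 without U1 AMO replicate 2, 3 without scrambled AMO replicate 1 and 0 without scrambled AMO replicate 2.

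The 22 clusters had 11 different lead hexamers, AAGAAA in 6, TAAAAA in 4, AAATAA in 3, AAAAGA in 2 and 7 others in 1 each. Their lead positions lay 7 to 37 nt from the hexamer (median 20.5), 16 of 22 at 15 to 30 nt, with downstream A counts of 2 to 8 (median 4). They held 9 to 52 positions each, and 14 of the 22 had no read at a T-third position. Their mean level under U1 AMO ran from 2.12 to 300.2 CPM.

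The strongest of the 22 was led by AAGAAA, at chr3:61170946-61170991 on the plus strand. It had 298 and 302 CPM under U1 AMO, 86.5 and 58.0 under scrambled AMO, and 40.3 and 47.3 in untreated libraries (log2 fold change over the scrambled AMO 2.05 ± 0.31 SE, edgeR adjusted p = 0.0496). A share of 38.2% of its reads was at T-third positions. The other 21 had at most 34.5 CPM in any library.

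By rule the largest changes came in clusters nearly empty without U1 inhibition. A cluster led by AAAAAG, chr8:87551646-87551678 on the plus strand, had 4.06 and 2.61 CPM under U1 AMO and no read in the other 4 libraries, at least 86.7-fold higher than the scrambled AMO against a floor of 3 reads over the group (adjusted p = 0.0493). One led by AAACAA, chr4:130225332-130225358 on the plus strand, had 2.79 and 3.37 CPM under U1 AMO and likewise no read elsewhere, at least 96.3-fold higher (adjusted p = 0.0497). With chromosome M left out of the fit, the adjusted p-values were 0.0506 and 0.0513, above 0.05.

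An AAAAAC cluster, chr19:6372831-6372891 on the plus strand, had 17.1 and 34.5 CPM under U1 AMO, 0.112 and 0.0321 under scrambled AMO, and 0.0778 and 0 in untreated libraries. Its pooled ratio over the scrambled AMO was 548 (95% interval 235 to 1690, adjusted p = 0.0346), and 37.4% of its reads were at T-third positions. An AAATAA cluster, chr19:55388589-55388605 on the minus strand, had 6.09 and 4.92 CPM under U1 AMO and 1 read in the scrambled AMO libraries (ratio 461, interval 82.2 to 18247, adjusted p = 0.0413). A TAAAAA cluster, chr13:39047198-39047223 on the minus strand, had 7.17 and 4.68 CPM under U1 AMO and also 1 read in the scrambled AMO libraries (ratio 464, interval 82.9 to 18390, adjusted p = 0.0430). What genes these 5 clusters lie in was not analysed here.

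Against untreated cells, 246 clusters led by the 16 hexamers rose under U1 AMO and 4 fell (edgeR, adjusted p below 0.05), 3.20% and 0.0520% of those tested, where 4.39% and 0.505% of all clusters did, 4.89% in either direction. All 22 clusters above were among the 246. Both comparisons use the same U1 AMO libraries in 1 fit, so this overlap is not independent support. By lead hexamer the share that rose was highest for AAAGAA, with 23 of 251 (9.16%), and AAAAAC, with 12 of 149 (8.05%), and lowest for TAAAAA, with 22 of 1994 (1.10%). The median log2 fold change was 0.44 for the 16 and 0.23 over all clusters. For AAAGAA it was 1.56 and for AAAAAC 1.46, and scrambled AMO against untreated gave 1.51 and 1.27 for the same pair. Of positions with at least 20 expected reads, untreated replicate 2 lacked 29.7% for AAAGAA and 27.9% for AAAAAC. For T-third hexamers it lacked 6.61%. For AAGTAA it lacked 21.9%, and 2 of 134 AAGTAA clusters (1.49%) rose under U1 AMO. For AACAAA it lacked 23.4%, and 15 of 250 clusters (6%) rose. For AAAAAG it lacked 19.3%, and 9 of 166 clusters (5.42%) rose. Whether positions missing from the untreated lists account for these rises was not tested. The count of calls was 56 without U1 AMO replicate 2, 105 without untreated replicate 2 and 711 without untreated replicate 1.

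The rising clusters of largest fold had no read in untreated cells. They too had enough reads for a test through the U1 AMO libraries, where they are high. A TAAAAA cluster, chr10:117142018-117142069 on the minus strand, had 33.1 and 15.3 CPM under U1 AMO, 0.112 and 0.0321 under scrambled AMO and none in untreated cells, at least 631-fold higher (adjusted p = 0.0108). An AAGAAA cluster, chr4:153349872-153349929 on the plus strand, had 21.5 and 21.4 CPM under U1 AMO, 0.0745 and 0.0642 under scrambled AMO and none in untreated cells, at least 707-fold higher (adjusted p = 0.00861). Its lead position had a downstream A count of 8 and lay 32 nt from the hexamer. A second AAGAAA cluster, chr5:114582465-114582478 on the plus strand, had 9.33 and 6.75 CPM under U1 AMO and 0.0745 and 0.0964 under scrambled AMO (at least 241-fold over untreated cells, adjusted p = 0.00991).

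AAATAA led the remaining pair, chr11:59476650-59476675 on the plus strand and chr9:31018288-31018309 on the minus strand. The first had 12.9 and 3.99 CPM under U1 AMO and 0.0745 and 0.0321 under scrambled AMO (at least 194-fold over untreated cells, adjusted p = 0.0173), and the other had 8.06 and 5.99 CPM under U1 AMO and 0.261 and 0.177 under scrambled AMO (at least 212-fold, adjusted p = 0.0108). Neither had a read in untreated cells. All 5 were among the 22 that also rose over the scrambled AMO.

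The 4 falling clusters were led by AAATAA or AAGAAA, with lead positions 19 to 22 nt from the hexamer. The AAATAA cluster at chr15:99147435-99147460 on the plus strand had 6.28 and 7.11 CPM under U1 AMO, 7.49 and 7.07 under scrambled AMO, and 29.6 and 45.9 in untreated libraries (log2 fold change over untreated -2.52 ± 0.35 SE, adjusted p = 0.0211). The other AAATAA cluster, chr11:120820069-120820120 on the plus strand, holds the position at 120820084 described above, with 105 and 116 CPM under U1 AMO, 130 and 173 under scrambled AMO, and 423 and 356 in untreated libraries (-1.87 ± 0.35, adjusted p = 0.0375). In both, the scrambled AMO libraries were nearer to the U1 AMO than to untreated cells.

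Of the AAGAAA clusters, chr5:109135949-109135973 on the plus strand had 4.70 and 4.97 CPM under U1 AMO, 8.87 and 5.70 under scrambled AMO, and 16.2 and 15.6 in untreated libraries (log2 fold change -1.76 ± 0.36, adjusted p = 0.0451). The cluster at chr8:125792189-125792240 on the minus strand had 17.5 and 17.2 CPM under U1 AMO, 21.3 and 18.2 under scrambled AMO, and 40.6 and 61.3 in untreated libraries (-1.59 ± 0.31, adjusted p = 0.0410). None of the 4 falls was called in every fit that left out 1 library.

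**Figure D5:**
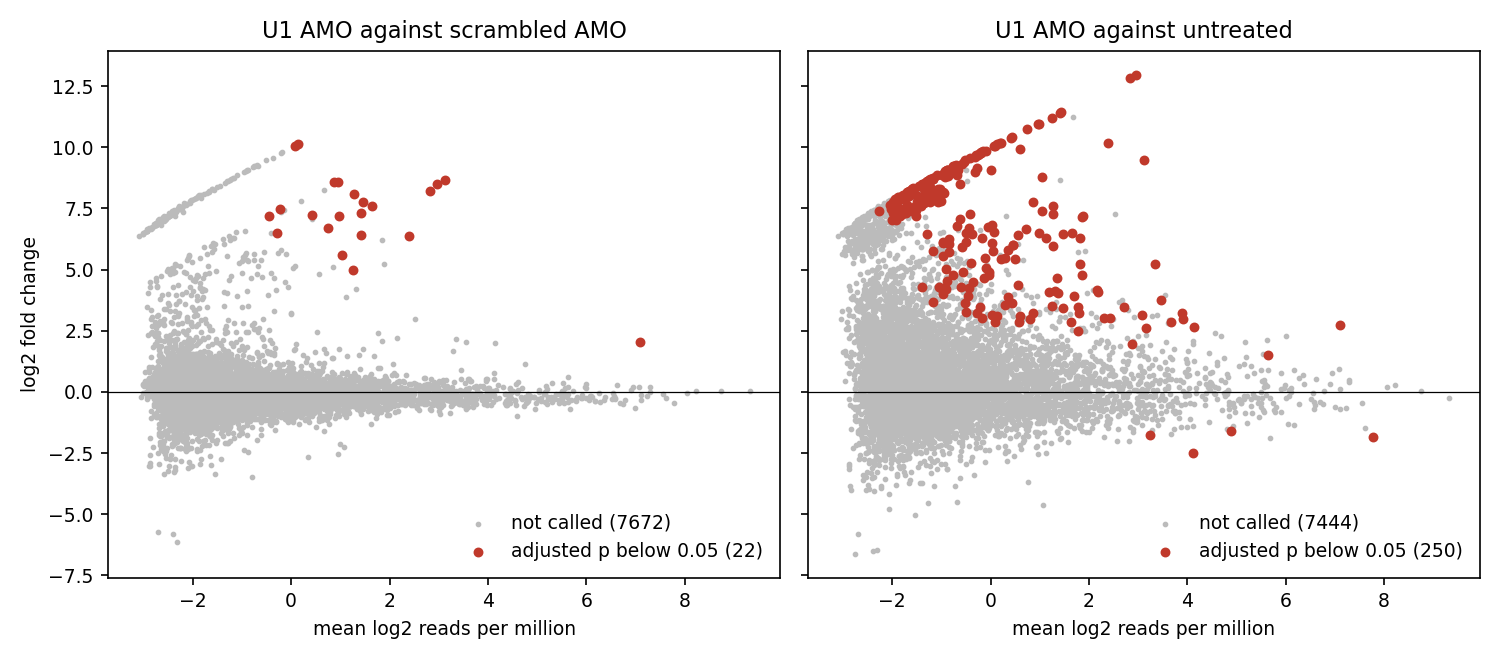
Each point is 1 of the 7694 tested clusters led by the 16 hexamers, with the mean log2 CPM on the x axis and the log2 fold change (edgeR) on the y axis, for U1 AMO against scrambled AMO on the left and against untreated on the right; red points have an adjusted p below 0.05. The 22 called on the left are all positive, and the 250 called on the right include 4 that are negative; the rising diagonal of points is made of clusters without reads in the second group, whose fitted folds depend on the prior count.

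Scrambled AMO against untreated gave 0 calls in either direction among these clusters, and 0 among all clusters tested (edgeR, adjusted p below 0.05). At an unadjusted p below 0.05, 995 of the 7694 clusters were higher and 126 lower, and DESeq2 called 256 higher and 10 lower. Over all 80049 clusters tested, 6818 were higher and 3672 lower at that unadjusted p, and DESeq2 called 1371 higher and 885 lower. The median log2 fold change was 0.43, and 0.15 over all clusters. Both comparisons with untreated cells share the untreated libraries, so their values stand side by side here without a test of likeness.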

How the data were processed

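RNA with poly(A) tails was cut with RNase T1, and its cDNA was size-selected, circularised, amplified and sequenced, per the labels' protocols. Bowtie, cutadapt and the mm9 build are named in the submitters' processing notes, without versions. The authors deposited, for each library, a list of stranded positions with raw read counts, a hexamer, its distance and a whole number from 0 to 10 (column 8); their filtering is not stated. No hexamer, distance or column 8 value differed between libraries.

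Positions of the 6 libraries were pooled, chromosome M was left out of shares, and CPM was computed here from each library's total. Class differences were taken within each library. Shares were compared by exact two-sided permutation tests, adjusted by Benjamini-Hochberg over 16 hexamers and 3 comparisons. Clusters were tested with edgeR 4.0.16 in R 4.3.3 (estimateDisp, glmQLFit, TMM, filterByExpr), all 6 libraries in 1 fit, chromosome M included; the SE is the log2 fold change over the root of its F statistic. DESeq2 1.42.0 was an alternative. Python 3.11.15, numpy 2.4.6, pandas 2.3.3 and scipy 1.17.1 did the rest. On simulated counts for U1 AMO against scrambled AMO, the test recovered 0 of 100 changes of 2-fold and 34 of 100 of 4-fold, with 1 false call over 68877 clusters. Those counts had a fixed dispersion, no run effect and no cluster set to be empty in a group. These rates may therefore not hold for the data.

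Named positions are the strongest of each hexamer and the 10 strongest of all; only some are printed. Named clusters are among calls whose mean over the 4 libraries compared reached 1 CPM, those with the 5 largest and the 5 smallest log2 fold changes; chromosomes M and 18 were left out. The cluster at chromosome 3 with the highest level among the 22 was named after its values were seen. Members, lists and tests were chosen with earlier results of these data known. Alternatives covered depth, low counts, joining distance, chromosome M, normalization, replicate blocks and leaving out each library. No genome sequence or gene annotation was used.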

Additional observations from a re-analysis of the deposited data

Results flagged for a closer look

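Reads at positions with these 16 hexamers on chromosome M, which the comparisons above leave out, took a larger share of all reads under U1 AMO than in untreated cells. The share was 0.155% and 0.114% under U1 AMO (mean 0.135 ± 0.0287%, SD, n = 2), 0.144% and 0.0759% under scrambled AMO (mean 0.110 ± 0.0479%), and 0.0551% and 0.0344% in untreated libraries (mean 0.0448 ± 0.0146%). Both AMO groups lay above both untreated libraries, which came from other sequencing runs. As a share of the reads on chromosome M, these hexamers took 7.21% and 9.37% under U1 AMO, 8.95% and 8.89% under scrambled AMO, and 8.94% and 9.79% in untreated libraries, so the groups overlapped on that scale.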

How the results depend on the processing

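Counts of calls depended most on the fit. For U1 AMO against scrambled AMO, U1 AMO against untreated and scrambled AMO against untreated, calls in either direction among clusters led by the 16 hexamers were 22, 250 and 0 as reported. They were 121, 771 and 266 with DESeq2, and 125, 624 and 260 without a filter on low counts. Fits of each comparison alone gave 107, 66 and 0, and tests of single positions 0, 75 and 0. Within a replicate number, the deviations of U1 AMO and scrambled AMO libraries in these clusters correlated at r = 0.77, and those of either AMO group and untreated libraries at r = -0.49. A replicate block in the 6-library fit left 0, 0 and 0 calls. With the 4 AMO libraries alone, the replicate block gave 452 higher and 84 lower (536), with 1 residual degree of freedom, and 22 of them were the clusters reported. Exchanging the untreated libraries in the block, an alternative added after seeing the data, gave 69, 613 and 0. Leaving out each library in turn gave 0 to 51 calls for U1 AMO against scrambled AMO and 56 to 711 for U1 AMO against untreated; an arm with 1 library was taken to vary like the others. RLE factors, joining at 10 nt, clusters of at least 2 positions and leaving out chromosome M kept these counts within 1.5 times. No named cluster changed sign under any of these settings. The call was lost in 22 of 117 of their fits with all libraries and in 26 of 56 with a library left out, and of the 5 clusters named against the scrambled AMO, 0 were called without scrambled AMO replicate 1 and 0 without scrambled AMO replicate 2.

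Differences in shares were small enough to change sign. The share of reads under U1 AMO minus scrambled AMO was -0.0055 percentage points for positions with at least 2 reads, -0.0411 for positions listed in all 6 libraries (added after seeing the data), and -0.0901 to 0.130 with a library left out. For AAAAAC it was -0.00050 over positions listed in all 6. The share of positions under U1 AMO minus untreated, -0.133 as reported, was 0.706 after thinning, 1.15 without TAAAAA (also added) and -1.74 to 1.48 with a library left out, and under U1 AMO minus scrambled AMO it was -3.00 to 0.220. Of the 3 hexamers without overlap between U1 AMO and scrambled AMO, 1, AAATAA, was without overlap with at least 2 reads, and it was the 1 with a downstream A count of 5 or less.

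Against T-third positions, the distance differed by -0.136 nt with at least 2 reads, and recurrence by -0.390 percentage points with at least 10 pooled reads, where the reads alone make listing by another library likely, and -2.73 with 2 to 9 (added after seeing the data), none past the threshold. Recurrence against AAAAAA was 1.22 percentage points after thinning, 1.45 with a downstream A count of 5 or less, -7.23 with 1 position per cluster and -7.70 with 2 to 9 pooled reads (p = 0.0312 in both by the exact sign-flip test). With a library left out the smallest exact p is 0.0625, so these fits say nothing about the threshold. Their values against T-third positions were 0.468 to 0.513 A bases, -0.797 to -0.631 nt, -18.5 to -17.2 percentage points of recurrence and -2.84 to -2.70 on the log2 scale for reads per position. Against AAAAAA they were -0.483 to -0.452 A bases, 8.03 to 9.06 nt, -1.78 to 0.579 percentage points and 0.73 to 0.98 on the log2 scale. The cause of these shifts was not tested.

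Depth limits the tests to the 3.90% of clusters with enough reads, and changes in the others were not detectable here.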
